A study of Mus musculus with 4 samples.

Results

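CD8-positive T cells were described in 2 single-cell libraries of dissociated mouse pancreatic islets, 1 from wild-type and 1 from Malat1-/- mice, both exposed to TCDD. Members were chosen by their measured counts: a barcode of at least 1000 UMIs (unique molecular identifiers, one per captured transcript) and at most 20% mitochondrial UMIs was a member when Cd3d, Cd3e and Cd3g together gave at least 2 UMIs, Cd8a and Cd8b1 at least 1, Cd4 0, Cd79a and Cd79b at most 1, and Ins1 and Ins2 less than 20% of its UMIs. The rule found 84 of 5009 barcodes, 59 of 2097 in the wild-type library and 25 of 2912 in the Malat1-/- library. Levels of the genes in the rule are therefore no finding, and every value below describes the 84 barcodes so selected.

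The groups were wild type with TCDD and Malat1-/- with TCDD, all from C57BL/6 mice. TCDD is tetrachlorodibenzo-p-dioxin, a ligand of the aryl hydrocarbon receptor, and Malat1 is an abundant nuclear long non-coding RNA. Islets were released from the pancreas with collagenase, purified on a density gradient, cultured, dissociated with Accutase and loaded on a 10x Chromium controller with the 3′ v3 chemistry. The sample labels call the cells beta cells, although the barcodes held T, B and acinar profiles too, and they give no dose, exposure time, age or number of animals. Each group is 1 library, so no test between groups was possible, and libraries given the vehicle DMSO were not analysed here. A level is given in CPM, UMIs per 1000000 UMIs summed over the members of a library after scaling between libraries and cell classes. Intervals are exact 95% limits that cover counting error only, not differences between animals or islet preparations.

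CD8 T cells recognise peptides on MHC class I through their T cell receptor with the help of the CD8 coreceptor, a dimer of the Cd8a and Cd8b1 products. Naive and central memory CD8 cells recirculate through blood and lymph nodes, kept mobile by the transcription factor Klf2 and its target S1pr1, while effector and effector memory cells carry granzymes, perforin and the chemokine Ccl5. Islets of healthy mice hold few T cells, and CD8 T cells are the main killers of beta cells in autoimmune diabetes.

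Marker genes of T cells and of other cell types were read in the members. Where a pair of values is given, the wild-type library comes first. All 84 members carried Trbc2, the constant segment of the T cell receptor beta chain, which the rule did not use. Trac, the alpha chain constant segment, was at 449 and 246 CPM in the wild-type and Malat1-/- members, against 18.4 and 4.54 CPM in B barcodes of the same libraries. The adaptor Lat stood at 358 and 459 CPM against 0.919 and 1.36 CPM in B barcodes. B barcodes were chosen for having no Cd3 UMI, so their low T cell levels are no independent check. Trbc2, Trac and Lat mark T cells in general and do not tell CD8 from CD4 T cells. The coreceptor genes belong to the rule and so do not check the label. Both were seen in 30 wild-type and 8 Malat1-/- members, Cd8b1 alone in 25 and 15, and Cd8a alone in 4 and 2. The gamma-delta marker list gave 4 and 0 UMIs over all members, all from Tcrg-C2, and the NK list 14 and 1 with Klrb1c and Ncr1 at 0. B cell markers gave 54 and 10 UMIs, macrophage markers 17 and 9, and granulocyte and erythroid markers 0 and 0.

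Members lay clear of the depth, mitochondrial and insulin limits of the rule, but not of the Cd8 and Cd79 limits. The lowest Cd3 sum was 3 in either library, against a limit of 2, and no barcode of at least 500 but under 1000 UMIs met the other conditions. A single Cd8 UMI carried 16 wild-type and 6 Malat1-/- members. Of the members, 3 wild-type and 1 Malat1-/- held 1 Cd79 UMI, the most the rule allows. Just outside, 105 and 82 T barcodes had no UMI of Cd8a, Cd8b1 or Cd4. These barcodes without a coreceptor had median depths of 4525 and 3214.5 UMIs, and 6 and 12 of them held 10 or more Ccl5 UMIs. Levels in CPM without the scaling factors follow for members with 1 Cd8 UMI, members with 2 or more, and barcodes without a coreceptor. Hif1a was at 473 and 749, 197 and 103, and 654 and 874. Tnfrsf4 was at 46.2 and 0, 2.99 and 7.90, and 166 and 261. Ccl5 was at 4006 and 8949, 5376 and 2189, and 287 and 1464. Another 6 and 1 barcodes carried both Cd8 and Cd4 UMIs, 1 wild-type barcode had 20% insulin UMIs or more, and 1 Malat1-/- barcode had Cd8 but no Cd3 UMIs.

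CD8 T barcodes made up 2.81% (2.15 to 3.61) of the wild-type and 0.859% (0.556 to 1.26) of the Malat1-/- barcodes. CD4 T barcodes, taken by the mirror-image rule with Cd4 in place of Cd8, were 126 and 60, or 6.01% and 2.06%. Of the CD8 and CD4 barcodes together, CD8 members were 31.9% (25.2 to 39.1) and 29.4% (20.0 to 40.3), 2 intervals that overlapped widely. Beta barcodes, those with at least 20% insulin UMIs, took 46.0% and 72.7% of the libraries, and B barcodes 8.82% and 10.1%. How much of the lower CD8 share in the Malat1-/- library goes with its higher beta share was not tested, and fewer T cells in the islets cannot be told apart from different purity of the preparations.

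Members held 2888 to 33796 UMIs in the wild-type library (median 5699, with a median of 1807 genes) and 2391 to 36379 in the Malat1-/- library (median 3937, with 1425 genes). CD4 barcodes had medians of 5385.5 and 3602.5 UMIs and B barcodes 7437 and 5213, so the median depths of CD8 and CD4 barcodes were close within a library, although the shallowest CD4 barcodes had 1141 and 1426 UMIs. By the medians wild-type members were read deeper than Malat1-/- members. No member barcode occurred in both libraries. Free RNA differed between the libraries: near-empty droplets of 10 to 100 UMIs carried 20.8% insulin and 11.1% acinar UMIs in the wild-type library against 49.2% and 0.504% in the Malat1-/- library.

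A few members stood apart and weigh on the sums. One Malat1-/- member of 36379 UMIs gave 24.4% of all UMIs of its group, and 13952 of its UMIs, or 38.4%, came from other islet hormones, chiefly Ppy, besides 5 Cd3, 3 Cd8 and 23 Ccl5 UMIs. The wild-type CD4 barcodes held 12385 Ppy UMIs, of which 31 remained once barcodes with 5% or more of such hormone UMIs were left out. Of the wild-type members, one of 33796 UMIs carried 301 UMIs of the proliferation list and one of 30522 UMIs carried 147. Barcodes over 10000 UMIs were 6 of 59 wild-type members with 27.9% of the UMIs and 2 of 25 Malat1-/- members with 32.2%. Doublets were not called, and results between genotypes are therefore given for all members, without the hormone-rich barcode and for members of at most 10000 UMIs.

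Ccl5, which encodes a chemokine (RANTES) that draws T cells and monocytes, ranked first among the genes higher in CD8 than in CD4 barcodes by the smaller of its ratios in the 2 libraries. Ccl5 (chromosome 11, 83525778 to 83530518, minus strand, GRCm38) was read at 4772 CPM (4572 to 4978) over the wild-type members and at 3195 CPM (2916 to 3494) over the Malat1-/- members. Single members ran from 0 through a median of 5.94 to 867 UMIs per 10000 over the 59 wild-type members and from 0 through 23.7 to 243 over the 25 Malat1-/- members. The distribution was split: 24 wild-type members had no Ccl5 UMI, 7 had 1 to 9 and 28 had 10 or more, and in the Malat1-/- library the counts were 9, 3 and 13. The members with 10 or more held 98.7% and 97.5% of all Ccl5 UMIs of their library and made up 47.5% (34.3 to 60.9) and 52.0% (31.3 to 72.2) of the members. The intervals of these Ccl5-high shares are wide and overlap, and the cut of 10 UMIs was not scaled to depth, so equal shares are not shown. In the wild-type library 1 barcode alone, with 604 UMIs, gave 28.1% of the sum.

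Barcodes that should lack Ccl5 held little of it. A Ccl5 UMI was seen in 59.3% and 64.0% of CD8 members, in 7.94% and 6.67% of CD4 barcodes, in 1.62% and 0.683% of B barcodes and in 0.934% and 0.283% of beta barcodes, although beta barcodes had medians of 61238 and 47230 UMIs. No B or beta barcode held 10 Ccl5 UMIs. With every barcode thinned to 1000 UMIs Ccl5 was seen in 49.2% and 56.0% of CD8 members and in 5 of 126 and 3 of 60 CD4 barcodes.

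**Figure D1:**
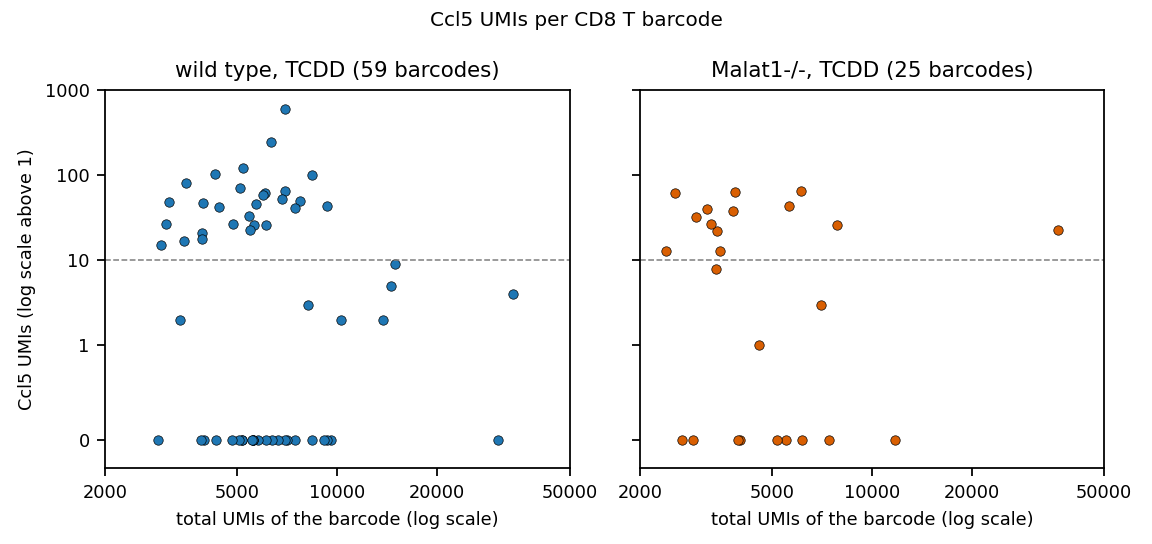
Ccl5 UMIs of each CD8 T barcode (vertical axis, logarithmic above 1) against its total UMIs (horizontal axis, logarithmic), wild type on the left and Malat1-/- on the right, with a dashed line at 10 UMIs. In either library the points form a row at 0 (24 and 9 barcodes) and a cloud at or above 10 (28 and 13 barcodes), at overlapping depths.

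Other genes of cytotoxic T cells were also found. Srgn, the proteoglycan core of secretory granules, was found in 58 and 24 members. Nkg7, a granule membrane protein, was found in 34 and 15 members at 318 and 219.7 CPM, and Klrd1, the CD94 chain of NK receptors, in 38 and 11 members at 356 and 259.6 CPM. The cathepsin Ctsw was found in 23 and 12 members and granzyme K (Gzmk) in 25 and 7. Eomes, a transcription factor of memory and effector CD8 cells, was found in 23 and 6 members at 202 and 113 CPM, but 70.6% of the Malat1-/- UMIs came from 1 barcode.

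The pore-forming and most lytic products were sparse. Perforin (Prf1) gave 17 and 3 UMIs in 15 and 3 members, granzyme B (Gzmb) 7 and 1 UMIs in 3 and 1, and interferon gamma (Ifng) 7 and 1 UMIs in 5 and 1. Granzyme A (Gzma) gave 24 and 2 UMIs, the death ligand Fasl 11 and 6 UMIs and Tnf 3 and 0 UMIs. At a median of 5699 and 3937 UMIs per barcode, counts this low do not show that a member lacked the transcript. Klrg1, a mark of terminal effectors, gave 3 and 0 UMIs, and the effector factor Tbx21 1 and 0 UMIs.

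Several genes of naive and central memory T cells were found in most members of either library. Klf2 was found in 45 and 21 members at 818 and 606 CPM, and single members ran from 0 through a median of 7.01 to 37.7 UMIs per 10000 over the 59 wild-type members and from 0 through 7.68 to 18.7 over the 25 Malat1-/- members. S1pr1, the receptor that lets T cells leave tissue, was found in 44 and 22 members at 362 and 326 CPM. The factors Tcf7 and Lef1, which maintain naive and stem-like states, were found in 47 and 21 and in 40 and 18 members. Ccr7, the chemokine receptor for homing to lymph nodes, was found in 23 and 14 members. Il7r, the survival receptor of resting T cells, was found in 21 and 12 members at 116 and 206 CPM. Levels of the 15 genes of this list summed to 3077 and 2962 CPM in CD8 members against 1472 and 1160.5 CPM in CD4 barcodes. Among beta barcodes, which should lack these genes, Klf2 had a UMI in 7.99% and 1.32%, Tcf7 in 0.830% and 0.189% and Nkg7 in 0.104% and 0.0944%.

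Several genes of tissue residence and of exhaustion gave few UMIs, while others of the same lists were read in many members. Itgae, the CD103 integrin that anchors resident cells in epithelium, gave 0 and 2 UMIs, and Itga1 and Zfp683 gave 0 and 0. Cxcr6 gave 10 and 2 UMIs. Cd69, which marks both recent activation and residence, was found in 26 and 9 members at 125 and 239.6 CPM, Rgs1, a damper of chemokine receptor signals, in 31 and 9 and Rgs2 in 20 and 10. Of the inhibitory receptors, Pdcd1 gave 8 and 0 UMIs, Lag3 18 and 5 UMIs, Havcr2 5 and 0 UMIs and Tigit 4 and 0 UMIs, while Ctla4 was found in 26 and 4 members with 59 and 7 UMIs. The Cd69 share among beta barcodes was 0.519% and 0.236%.

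**Figure D2:**
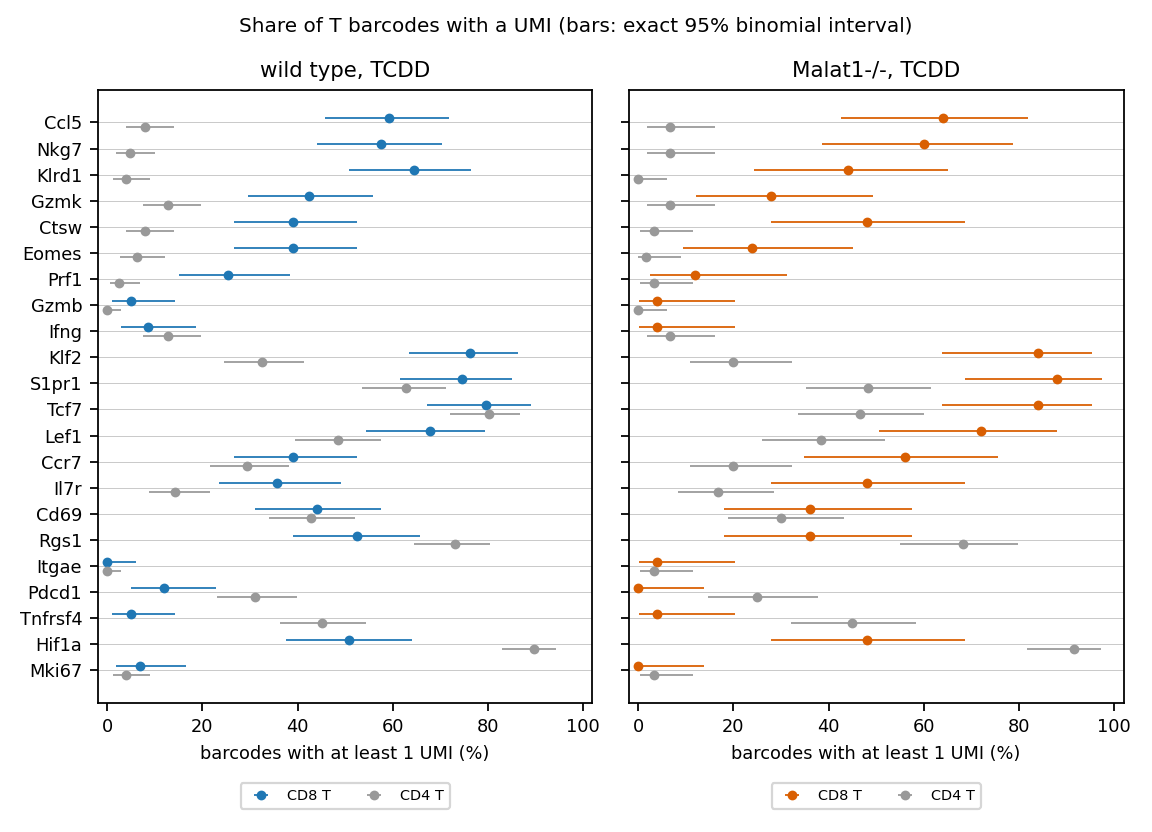
Share of CD8 T barcodes (coloured) and CD4 T barcodes (grey) with at least 1 UMI of each gene, wild type on the left and Malat1-/- on the right, with exact 95% binomial intervals that cover counting error only. Ccl5, Nkg7 and Klrd1 were found in 44.0% to 64.4% of CD8 barcodes and in at most 7.94% of CD4 barcodes, and Klf2 in 76.3% and 84.0% of CD8 against 32.5% and 20.0% of CD4 barcodes.

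Members with 10 or more Ccl5 UMIs and members with none differed in other genes as well. The groups were formed from counts of the same barcodes, so these values are a description, in CPM without the scaling factors. Their median depths were close in the wild-type library (5434.5 against 5681.5 UMIs) and less so in the Malat1-/- library (3485 against 5183), where the hormone-rich barcode is one of the 13 Ccl5-high members, so shares of members are given there.

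In the wild-type library several effector and memory genes were found in a larger share of Ccl5-high than of Ccl5-negative members. The 7 wild-type members with 1 to 9 Ccl5 UMIs are in neither group. Single ones among these held 39, 31 and 11 Gzmk UMIs and 8, 10 and 11 Eomes UMIs. For Gzmk and Eomes the shares therefore do not say where most of the UMIs lay. Nkg7 was at 658 CPM in Ccl5-high and 82.0 in Ccl5-negative members and was found in 23 of 28 against 6 of 24, and Ctla2a, a cysteine protease inhibitor of activated T cells, was at 1363 CPM in Ccl5-high and 105 in Ccl5-negative members. Gzmk was found in 19 of 28 against 2 of 24 members, Eomes in 15 of 28 against 3 of 24, Prf1 in 10 of 28 against 2 of 24 and Il2rb, the shared receptor chain for IL-2 and IL-15, in 18 of 28 against 8 of 24. In each of these genes the Ccl5-high members had the larger share. In the Malat1-/- library Nkg7 was found in 9 of 13 against 4 of 9, Ctla2a in 10 of 13 against 2 of 9, Gzmk in 6 of 13 against 1 of 9 and Il2rb in 8 of 13 against 1 of 9, with the larger share again in Ccl5-high members. Prf1 did not repeat this there, with 1 of 13 against 2 of 9. Ly6c2, carried by memory CD8 cells, was found in 3 of 28 against 0 of 24 wild-type and 6 of 13 against 0 of 9 Malat1-/- members, in none of the Ccl5-negative ones.

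A few genes were found more often or at higher levels in the Ccl5-negative members. Ccr7 was found in 7 of 28 against 11 of 24 wild-type and 5 of 13 against 8 of 9 Malat1-/- members (Ccl5-high against Ccl5-negative). Igfbp4, expressed by naive T cells, was found in 0 of 28 against 4 of 24 and 0 of 13 against 3 of 9. Gapdh was at 1073 CPM in Ccl5-high and 2713 in Ccl5-negative members in the wild-type library, and at 2705 in the Ccl5-negative members of at most 10000 UMIs. Mif, a proinflammatory cytokine, was at 303 CPM in Ccl5-high and 943 in Ccl5-negative members, and at 835 without the deepest barcodes. By contrast Klf2 was at 809.8 CPM in Ccl5-high and 844 in Ccl5-negative members, Tcf7 at 435 CPM in Ccl5-high and 539 in Ccl5-negative members and S1pr1 at 342 CPM in Ccl5-high and 457 in Ccl5-negative members, levels within 1.5-fold of each other. Il7r, although counted with the naive genes, was found in 11 of 28 against 6 of 24 wild-type and 8 of 13 against 2 of 9 Malat1-/- members, more frequently in the Ccl5-high ones.

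Receptor variable segments were read rarely from the 3′ end. A Trbv segment had a UMI in 22 wild-type and 3 Malat1-/- members, 25 of 84, and these spread over 11 Trbv genes with Trbv12-2 and Trbv2 the most frequent at 4 members each. No member carried 2 Trbv segments. Trbc1 UMIs were found in 36 wild-type and 13 Malat1-/- members, all of which also held Trbc2. The 2 constant segments are near-identical copies, so the split between them is uncertain.

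To show where CD8 members differed from the other T cells, they were compared with CD4 barcodes within each library. A gene counted when it was at least 2-fold apart in the same direction in both libraries, with at least 50 CPM in either class and 30 UMIs over both classes in each library. Of 1894 genes, 22 were higher in CD8 members, or 1.16% of the genes compared, and 71 were lower, or 3.75%. The intervals excluded equality in both libraries for all 22 of the higher and 70 of the lower genes. The median log2 ratio over all genes compared was -0.05 in the wild-type and -0.22 in the Malat1-/- library. With UMI totals in place of the scaling factors the counts were 18 and 93 of 1911, and the medians -0.19 and -0.45.

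Ccl5 was 30.8-fold (26.1 to 36.5) higher in CD8 members in the wild-type library and 36.5-fold (25.1 to 55.0) in the Malat1-/- library. Klrd1 was 12.1-fold (8.11 to 18.7) higher in the wild-type library, and in the Malat1-/- library it was at least 28.6-fold higher, with 39 UMIs against 0. Nkg7 was 12.6- and 4.54-fold higher and Klf2 4.44- and 7.16-fold. Plac8, a small protein of activated leukocytes, was at 160.1 and 233 CPM in CD8 members against 1.01 and 24.2 CPM in CD4 barcodes. Ms4a4b, a T cell membrane protein, was 5.47- and 2.89-fold higher and Ctla2a 2.82- and 4.52-fold.

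By list, 4 of 9 naive and central memory genes compared were higher in CD8 members and none lower. Il7r was 3.68- and 2.53-fold and Lef1 2.33- and 2.70-fold higher. Tcf7 was 1.49- and 2.42-fold and S1pr1 1.60- and 2.40-fold higher, past 2-fold in the Malat1-/- library alone. The list's median log2 ratios were 0.68 and 1.27. Of 4 cytotoxic and effector genes compared, Ccl5 and Nkg7 were higher, Gzmk was 4.01- and 1.70-fold higher, and Srgn was lower at 789 and 706 CPM against 1813 and 2206 CPM in CD4 barcodes. Prf1 and Eomes did not reach the count minimum, with 17 and 3 UMIs in CD8 against 3 and 2 UMIs in CD4 barcodes for Prf1 and 91 and 17 UMIs against 21 and 5 UMIs for Eomes. Of 11 immediate-early genes, Ier2 and Dusp2 were higher, 2.30- and 2.37-fold and 2.73- and 2.62-fold.

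Genes lower in CD8 members included some costimulatory receptors of the TNF receptor family. Cd27 and Cd28, costimulatory receptors placed in the T cell receptor list, were not among them, as no gene of that list counted. Tnfrsf4 (OX40) was at 11.1 and 6.66 CPM in CD8 against 212 and 423 CPM in CD4 barcodes, and was 19.1-fold (8.03 to 59.3) lower in the wild-type library, with 5 UMIs in members. Tnfrsf9, another receptor of this family, was at 97.8 and 6.66 CPM against 737 and 493 CPM, or 7.53-fold (5.55 to 10.5) lower in the wild-type library, and in the Malat1-/- library it rested on 1 UMI in members. Tnfrsf18 (GITR) and Icos, the costimulator of the CD28 family, were lower too, at 116 and 53.3 CPM against 316 and 447 CPM and at 42.2 and 20.0 CPM against 113 and 169 CPM. Both genes are in none of the lists and not among the lowest ratios, so they were picked outside the naming rule. Among the other named genes, Izumo1r, a member of the folate receptor family, was at 24.5 and 6.66 CPM against 153 and 154 CPM. Cish, a feedback inhibitor of cytokine signalling, was at 11.1 and 0 CPM against 82.1 and 96.7 CPM. Of 5 regulatory T cell markers 3 had enough counts, and Tnfrsf4 and Ikzf2 were lower while Ctla4, not counted, was 1.34- and 4.35-fold lower. Regulatory T cells among the CD4 barcodes were not set aside, and their part in these differences was not tested.

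Of 3 tissue residency genes compared, Rgs1 and Rgs2 were lower as well. Rgs1 was at 187 and 93.2 CPM in CD8 members against 562 and 462 CPM in CD4 barcodes, 3.01-fold (2.39 to 3.83) lower in the wild-type and 4.96-fold (2.87 to 9.29) lower in the Malat1-/- library. Rgs2 was 2.95- and 2.68-fold lower, the chemokine receptor Cxcr4 4.64- and 4.99-fold and the checkpoint receptor Lag3 2.05- and 3.36-fold. Cd69, the other residency gene with enough counts, did not follow, at 1.07- and 2.56-fold higher in CD8 members, with the wild-type ratio at 0.973 when scaled by UMI totals. None of 19 genes of the T cell receptor complex and its signalling compared, leaving out the Cd3 genes of the rule, none of 11 of MHC class I presentation, none of 7 interferon-induced genes and none of 11 mitochondrial transcripts passed the limit in either direction.

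**Figure D3:**
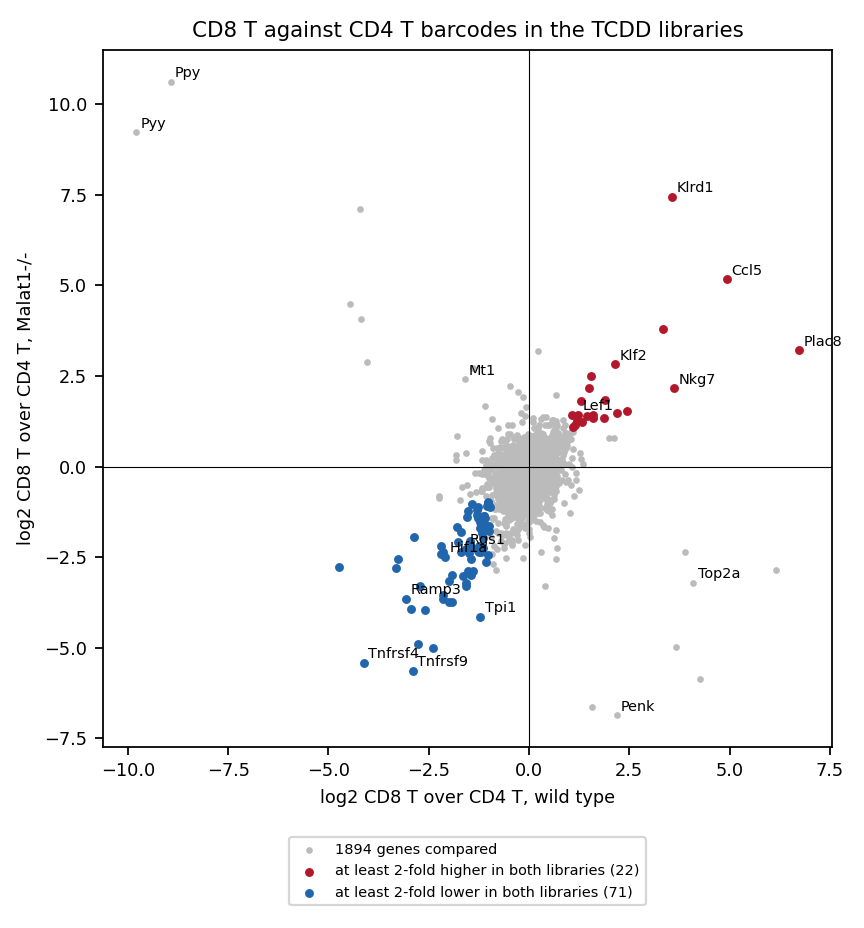
Log2 ratio of CD8 T over CD4 T barcodes for 1894 genes, wild type on the horizontal and Malat1-/- on the vertical axis, with genes at least 2-fold higher in both libraries in red (22) and lower in blue (71). Ccl5, Klrd1, Nkg7 and Klf2 lie in the upper right and Tnfrsf4, Tnfrsf9, Hif1a and Rgs1 in the lower left, while Ppy, Pyy and Top2a, whose counts come mostly from single barcodes, lie off the diagonal.

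The glycolysis and hypoxia genes lay mostly on the lower side. All 11 compared except Gpi1 were lower in CD8 members in both libraries by any amount, and 4 (Tpi1, Pkm, Hif1a and Mif) passed 2-fold in both. The medians were -0.81 and -1.95 on the log2 scale, against -0.05 and -0.22 over all genes. Hif1a, the oxygen-regulated transcription factor of glycolysis, was at 238 and 199.7 CPM in CD8 members against 1017 and 1142 CPM in CD4 barcodes, or 4.28-fold (3.50 to 5.27) and 5.72-fold (3.94 to 8.60) lower. A Hif1a UMI was found in 50.8% and 48.0% of CD8 members against 89.7% and 91.7% of CD4 barcodes. Pkm, which makes pyruvate, was 2.22- and 4.00-fold lower and Ldha, which turns it into lactate, 1.93- and 3.91-fold lower. Gpi1 was at 503 and 266 CPM against 406 and 290.1 CPM. Among members of at most 10000 UMIs 6 of 11 passed 2-fold in both libraries, and without the hormone-rich barcodes 4 of 11.

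**Figure D4:**
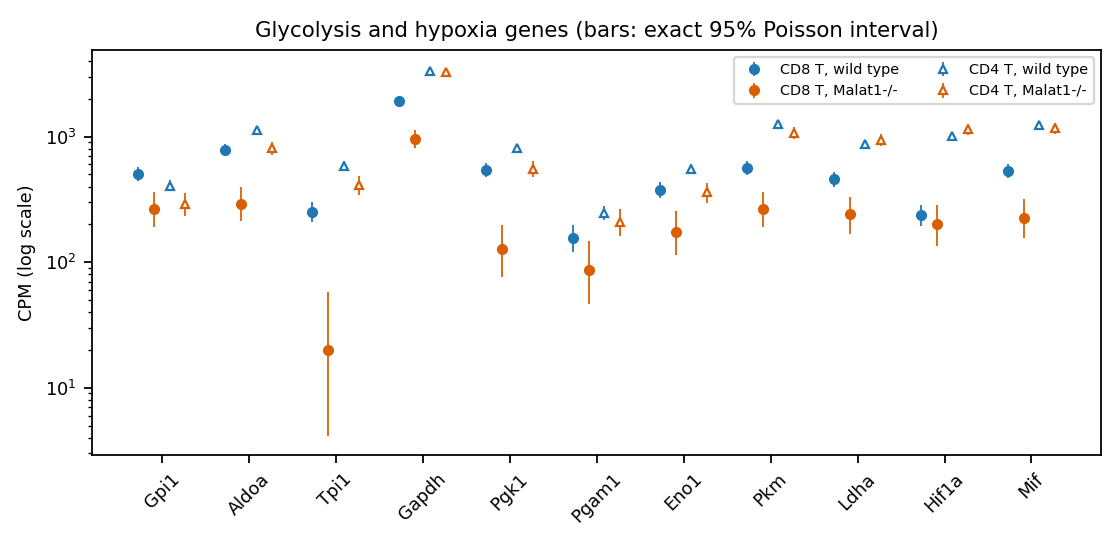
Levels of the 11 glycolysis and hypoxia genes compared, in CPM on a logarithmic axis, in CD8 T (filled circles) and CD4 T barcodes (open triangles) of the wild-type (blue) and Malat1-/- (orange) libraries, with exact 95% Poisson intervals. The Malat1-/- CD8 members are the lowest of the 4 sums for every gene shown, Tpi1 at 20.0 CPM against 251 in wild-type members.

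Against B barcodes (at least 2 Cd79 UMIs and no Cd3 UMI, 185 and 293), 125 of 2675 genes were higher in CD8 members in both libraries, or 4.67%, and 383 lower, or 14.3%. This balance rests on the scaling: with UMI totals alone 207 were higher and 242 lower, and the higher genes made 46.1% of those that counted in place of 24.6%. The main medians over all genes were -0.20 and -0.45 on the log2 scale. Of 11 T cell receptor genes compared, 9 were higher, among them Trbc2 at 2339 and 1731 CPM against 0 and 0 CPM and the adaptors Skap1 and Fyb. All 7 B markers compared were lower. Cd74, the invariant chain of MHC class II, was at 8.89 and 0 CPM in CD8 members against 10353 and 11655 CPM, and the class II gene H2-Aa was at least 392-fold and 113-fold lower, with 0 UMIs in members.

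Of 12 naive genes 7 were higher than in B barcodes, including Tcf7 at 445 and 373 CPM against 1.38 and 0.909 CPM and Il7r at 116 and 206 CPM against 2.76 and 0.454 CPM. Klf2, which separated CD8 from CD4 barcodes, was at 818 and 606 CPM against 463 and 288 CPM in B barcodes and so not past 2-fold in the wild-type library. Of 5 cytokine signalling genes 4 were higher, with Il2rg, the common gamma chain, at 173 and 146 CPM against 62.5 and 70.9 CPM. The glycolysis genes had median log2 ratios over B barcodes of -0.44 and -1.18, and of 11 only Mif passed 2-fold in both libraries.

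Genes of the aryl hydrocarbon receptor pathway, the pathway TCDD acts on, gave few UMIs in the members. Ahr itself gave 2 and 0 UMIs, its partner Arnt 13 and 2 UMIs and the target Tiparp 17 and 5 UMIs. Cyp1a1, the standard target, gave 0 UMIs in 421274 and 149211 member UMIs, counts that allow up to 8.20 and 24.6 CPM, and so did Cyp1b1, Ahrr and Nqo1. T barcodes with neither coreceptor, 105 and 82 in number, held 127 and 62 Cyp1a1 UMIs, and CD4 barcodes 7 and 0. The barcodes with neither coreceptor ran up to 89156 and 22758 UMIs, and how many of them held Cyp1a1 is not given here. No difference between T cell classes is therefore read from these sums. No gene of this list of 9 had enough counts to compare genotypes or T cell classes. Tiparp was at 37.8 and 33.3 CPM in CD8 members against 234 and 164 CPM in B barcodes, 6.20- and 4.93-fold lower. Without vehicle libraries these levels say nothing about a response to TCDD.

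Between genotypes, Malat1 was the first check. Wild-type members carried 9370 Malat1 UMIs (chromosome 19, 5795690 to 5802672, minus strand, GRCm38), found in all 59 members at 42.6 to 599 UMIs per 10000 with a median of 243. Malat1-/- members carried 1 UMI in 1 of 25 barcodes, a ratio of 0.000319 (8.1e-06 to 0.00178). No member went against its genotype label, and near-empty droplets held 12379 Malat1 UMIs in the wild-type and 3614 in the Malat1-/- library.

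A gene reached the limit for a genotype difference when its level was 50 CPM or more in either library on 50 or more UMIs in all, and when the ratio passed 2-fold with its whole interval past 1.5-fold. Of 1414 genes, 20 were higher in Malat1-/- members, or 1.41%, and 50 lower, or 3.54%, with a median log2 ratio of -0.15 over all genes. Without the hormone-rich barcode 4 of 1340 genes were higher and 32 lower, 35 of these 36 shared with the counts over all members. Among members of at most 10000 UMIs 5 of 965 were higher and 21 lower, 20 of them shared. The counts therefore depend on a handful of barcodes, and single genes below carry the other values where they no longer or newly counted.

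Hormone, granule and acinar genes of other islet cells were among the genes with the highest and the lowest ratios. The hormones Ppy, Pyy and Sst and the secretory granule genes Chga, Chgb, Pcsk2, Pcsk1n, Resp18 and Rbp4 were higher in Malat1-/- members, and 99.9% of the Ppy and 2309 of 2310 Pyy UMIs came from the hormone-rich barcode. Without it only Ins1, Ins2, Iapp and Cd69 were higher. Ins2 was at 1056 and 12780.3 CPM, a ratio of 12.1 (10.9 to 13.4) that became 14.4 without that barcode. The insulin share per barcode had medians of 0.147% and 1.47% in CD8 members, 0.159% and 1.93% in CD4 barcodes and 0.119% and 1.31% in B barcodes, and 20.8% and 49.2% in near-empty droplets. The acinar enzymes ran the other way. All 8 acinar markers compared were lower in Malat1-/- members, Ctrb1 at 867 and 20.0 CPM, beside 11.1% and 0.504% acinar UMIs in near-empty droplets. The part of free RNA in these genes was not tested.

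Over all members, several gene groups that T cells themselves express had medians below that of all genes in Malat1-/- members. Other groups lay above it, among them naive and central memory (0.06), immediate-early (0.28), interferon-induced (0.26) and tissue residency genes (0.95). Unless another set is named, the medians below include the hormone-rich barcode, which gave 24.4% of the Malat1-/- UMIs. Memory and effector genes had a median log2 ratio of -0.84 with 1 of 8 lower, T cell receptor genes outside the rule -0.71 with 3 of 20, and actin and cytoskeleton genes -0.66 with 2 of 11 lower. The latter were Tmsb4x, which binds actin monomers, at 0.443 (0.401 to 0.488) and Cd52, a surface glycoprotein of lymphocytes, at 0.438 (0.356 to 0.536), and none of the 11 counted without the hormone-rich barcode. Of 11 glycolysis and hypoxia genes compared, 5 were lower and none higher, with a median log2 ratio of -1.07 against -0.15 over all genes. Tpi1, the triosephosphate isomerase of glycolysis, was at 251 and 20.0 CPM, a ratio of 0.0795 (0.0161 to 0.238), with a UMI in 31 and 3 members. Pgk1 was at 540.3 and 126 CPM, a ratio of 0.234 (0.139 to 0.374), and Aldoa at 787 and 293 CPM, a ratio of 0.372 (0.266 to 0.510). Pkm and Mif were also lower, with ratios of 0.471 (0.329 to 0.660) and 0.424 (0.287 to 0.609). Hif1a was not, with a ratio of 0.839 (0.540 to 1.27), although 53.3% of its Malat1-/- UMIs came from 1 barcode. Without the hormone-rich barcode 4 of 11 were lower at a median of -0.88, and among members of at most 10000 UMIs 5 of 10 at a median of -1.12. Mif counted under neither change, with ratios of 0.538 and 0.431, and Aldoa was at 0.287 and 0.217. Malat1-/- members were read less deeply (median 3937 against 5699 UMIs), and the part of depth in this difference was not tested.

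In CD4 barcodes Pgk1 was at 816 and 556 CPM and Tpi1 at 587 and 411 CPM, and in B barcodes Pgk1 was at 735 and 368 CPM and Tpi1 at 435 and 239.9 CPM. Both genes were lower in the Malat1-/- library in all 3 classes. Whether the difference is larger in CD8 members than in the other classes was not tested.

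Some T cell genes were lower in Malat1-/- members over all barcodes, with smaller differences once the hormone-rich or the deepest barcodes were left out. Gzmk was at 402 and 113 CPM, a ratio of 0.281 (0.160 to 0.463), which was 0.367 without the hormone-rich barcode and 0.433 among members of at most 10000 UMIs, where it no longer counted. Ms4a4b was at 798 and 279.6 CPM, a ratio of 0.350 (0.248 to 0.483), with 0.447 and 0.554 under the same changes, the last not counted. Ctla2a was at 643 and 259.6 CPM, a ratio of 0.404 (0.281 to 0.566), and it counted under neither change, at 0.501 and 0.479. Ccl5 itself was not 2-fold apart over all members, with a ratio of 0.670 (0.605 to 0.740), nor were Nkg7 at 0.691 (0.458 to 1.01) and Klrd1 at 0.730 with an upper limit of 1.04. Among members of at most 10000 UMIs, in CPM without the scaling factors, Ccl5 was at 6997 and 4520, Nkg7 at 362 and 267 and Klrd1 at 376 and 366. Klrk1, the NKG2D receptor, had too few counts for the limit, with 36 UMIs in 11 wild-type members and 0 in Malat1-/- members, which is at least 4.01-fold lower.

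None of 9 naive and central memory genes was 2-fold apart, beside 1.41% higher and 3.54% lower of all 1414 genes. In a list this small a count of 0 is near that share and shows no particular stability. Their median log2 ratio was 0.06, or -0.03 when scaled by UMI totals, with Lef1 at 1.03 (0.731 to 1.44), S1pr1 at 0.900 (0.640 to 1.25) and Tcf7 at 0.838 (0.612 to 1.13), and Il7r highest at 1.78 (1.11 to 2.84). These ratios include the hormone-rich barcode. Among members of at most 10000 UMIs, in CPM without the scaling factors, Lef1 was at 369 and 445 and S1pr1 at 461 and 445. Tcf7 was at 514 and 504 and Il7r at 161 and 277 in the same members. Cd69 was at 125 and 239.6 CPM, a ratio of 1.92 (1.23 to 2.98), and it counted as higher without the hormone-rich barcode (2.52) and among members of at most 10000 UMIs (2.46). Its share of members with a UMI went against the level, 44.1% and 36.0%, and 33.3% of the Malat1-/- UMIs came from 1 barcode, so no order is read from it. Of 20 T cell receptor genes outside the rule, Trbc1, Fyb and Sh2d1a were lower over all members and none counted without the hormone-rich barcode. The ratio of Sh2d1a, an adaptor known as SAP, was 0.269 (0.120 to 0.532) over all members, 0.352 without that barcode and 0.314 among members of at most 10000 UMIs, on 9 Malat1-/- UMIs in all. None of 10 genes of MHC class I presentation, of 11 immediate-early genes, of 5 interferon-induced genes or of 11 mitochondrial transcripts counted. These counts of 0 are also near the share over all genes.

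**Figure D5:**
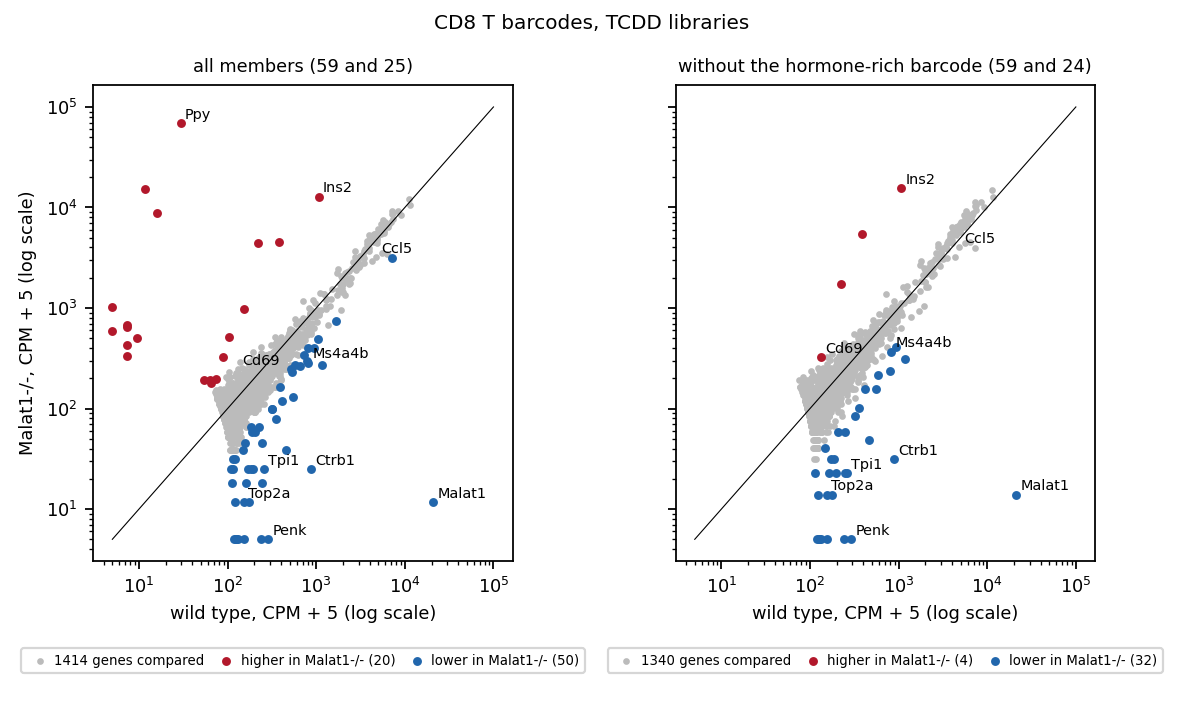
Level of each gene compared in wild-type (horizontal) and Malat1-/- CD8 T barcodes (vertical), in CPM plus 5 on logarithmic axes, for all members on the left and without the hormone-rich barcode on the right, with genes that count as 2-fold higher in Malat1-/- in red and lower in blue. The red points number 20 and 4 and the blue 50 and 32 in the 2 panels, and Malat1, Ctrb1, Tpi1 and Ms4a4b lie below the line in both panels.

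Of the proliferation genes, Top2a, Hist1h1b and Mki67 were read mostly from few wild-type barcodes. All 3 genes of the list that could be compared (Top2a, Stmn1 and H2afz) were lower in Malat1-/- members, but 87.9% of the wild-type Top2a and 94.6% of the Hist1h1b UMIs came from 1 barcode. The Top2a barcode was the one of 33796 UMIs. Mki67, the usual mark of cycling cells, was found in 4 and 0 members with 34 and 0 UMIs. H2afz, a histone variant expressed beyond cycling cells too, was found in 57 and 18 members, with 188 of its 417 wild-type UMIs in members of at most 10000 UMIs. Among members of at most 10000 UMIs only 1 gene of the list could be compared and it did not count. Penk, which encodes the opioid precursor proenkephalin, was found in 9 wild-type members with 127 UMIs, 74.8% of them in 1 barcode, against 0 in Malat1-/- members, at least 14.1-fold lower.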

How the data were processed

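Wild-type and Malat1-/- TCDD libraries, 1 per group, were analysed; the libraries given DMSO were not analysed here. The authors deposited unfiltered UMI count matrices (32285 genes), made with Cell Ranger 2.1.0 on mm10 per the submitters' processing notes, while the file headers give Cell Ranger 4. The libraries held 81872519 and 134950186 UMIs, the members 421274 and 149211.

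Members and gene lists were chosen with earlier results of these data known. For each gene, counts of a class were added up within a library, and CPM were computed with edgeR 4.0.16 in R 4.3.3, whose TMM factors were 1.068 and 1.007 for CD8, 1.173 and 1.184 for CD4, and 0.883 and 0.759 for B barcodes. No test was possible. Levels carry exact Poisson, shares Clopper-Pearson and ratios exact conditional limits at 95%. A fold against 0 UMIs was computed against 3 counts over the class and is a lower bound; log2 values used 0.5 added UMI. Genes were named from the 22 gene lists and 16 marker lists and as the 12 genes with the highest and the 12 with the lowest ratio that counted in each comparison. Tnfrsf18 and Icos were named outside this rule. One gene of these lists entered the counts and is not reported here. Scripts ran in Python 3.11.15 with numpy 2.4.6, scipy 1.17.1, pandas 2.3.3 and matplotlib 3.10.9 and were checked on simulated data. Coordinates came from GENCODE M21 (GRCm38), which held 32158 of the 32285 gene identifiers. Thinning drew 1000 UMIs per barcode. Of the other settings, 11 varied the rule, scaling, minimums and depth, and 1, leaving out barcodes with 5% or more of other hormones, was chosen after seeing the data.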

Additional observations from a re-analysis of the deposited data

Results flagged for a closer look

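Among the genes open to naming, 12 were at least 2-fold apart between CD8 and CD4 barcodes in opposite directions in the 2 libraries, with the whole interval past 1.5-fold in each. The difference was not tested, with 1 library per genotype. Log2 ratios of CD8 over CD4 barcodes are given, wild type first and then Malat1-/-. Among hormone and granule genes, Ppy stood at -8.94 and 10.62, Pyy at -9.80 and 9.23, Pcsk2 at -4.46 and 4.48, Pcsk1n at -4.20 and 4.06, and Chga at -4.04 and 2.89. The metallothioneins Mt2 and Mt1, which bind zinc and copper, stood at -1.41 and 2.72 and at -1.61 and 2.40. In Malat1-/- members 135 of the 147 Mt1 UMIs (91.8%) and 23 of the 25 Mt2 UMIs came from 1 barcode. The cell cycle genes ran the other way, Top2a at 4.10 and -3.21, Stmn1 at 3.89 and -2.36, Hist1h1b at 4.25 and -5.87 and Hist1h2ap at 3.65 and -4.97. Penk stood at 2.19 and -6.86.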

How the results depend on the processing

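The rule gave 84 members, and 62 with at least 2 Cd8 UMIs. Each group is 1 library, so no replicate could be left out. No paired analysis was possible because the groups share no replicate number beyond a single library each. Genes 2-fold apart between genotypes numbered 70, against 10 with barcodes thinned to 1000 UMIs (189 genes compared), 26 among barcodes of at most 10000 UMIs and 36 without barcodes rich in other hormones, and 60 to 75 under the other alternatives. The 60 were found with barcodes holding no Cd79 UMI, where 57 of the 70 were kept. CD8 against CD4 gave 93 genes, 20 when thinned (360 compared) and 78 to 111 otherwise. CD8 against B gave 508, 174 when thinned (904 compared), 867 with a minimum of 20 CPM (5056 compared) and 408 to 535 otherwise. Fewer genes reach the count minimum when thinned.

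Signs turned for few named genes. Between genotypes the log2 ratio among barcodes of at most 10000 UMIs was 0.0436 for Hist1h2ap and 0.0436 for Stmn1, -0.80 for Mt1 and -1.54 for Sst. Without hormone-rich barcodes it was -0.46 for Mt1 and -1.49 for Sst. Wild-type and Malat1-/- members of at most 10000 UMIs held 1 and 0 Hist1h2ap, 7 and 2 Stmn1, 56 and 10 Mt1 and 4 and 0 Sst UMIs. The Hist1h2ap and Stmn1 values are positive only through the 0.5 added UMI, and by the counts alone both genes stayed lower in Malat1-/- members. For CD8 over B, the lesser log2 ratio of the 2 libraries became 0.54 for Isg20, 1.09 for Mki67 and 2.96 for Ube2c at 10000 UMIs or fewer, and 0.0207 for Mcm5 when thinned. Members of at most 10000 UMIs held 6 and 1 Isg20, 1 and 0 Mki67 and 0 and 0 Ube2c UMIs (wild type, then Malat1-/-). The Mki67 and Ube2c values therefore rest on the 0.5 added UMI and show no higher level in CD8 members. The cause of the other changes was not tested. Depth limits the rarer transcripts: 0 UMIs of Cyp1a1 allow up to 8.20 CPM over the wild-type and 24.6 over the Malat1-/- members.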

Other observations

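Further genes, picked after their values were seen, were found mostly on the CD8 side of the T cells without reaching the count minimum in both libraries. The chemokine genes Ccl3, Ccl4 and Xcl1 gave 15 and 0, 27 and 2, and 20 and 4 UMIs in wild-type and Malat1-/- members. In CD4 barcodes Ccl3 was at 0 and 0 CPM, Ccl4 at 1.01 and 0 CPM and Xcl1 at 7.09 and 0 CPM. Cd7, a surface protein of T and NK cells, was at 77.8 and 133 CPM in members against 2.03 and 9.07 CPM in CD4 barcodes. Klrc1, an NKG2 chain that pairs with the Klrd1 product, was at 15.6 and 73.2 CPM against 1.01 and 0 CPM. Dapl1 was at 68.9 and 99.8 CPM against 2.03 and 9.07 CPM. No explanation of these values was tested.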
